A study of Mus musculus with 8 samples.

Results

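Ion channel genes were examined in the tibialis anterior, a shin muscle, of mice with cancer cachexia, the wasting of muscle that accompanies cancer. Genes were chosen by name: potassium channel genes (Kcn), voltage-gated calcium channel genes (Cacn), ryanodine receptors (Ryr), inositol trisphosphate receptors (Itpr), sodium channel genes (Scn), chloride channel genes (Clcn), nicotinic acetylcholine receptor subunits (Chrn), transient receptor potential channels (Trpc, Trpm, Trpv), and Lrrc38. The names matched 52 of the 6028 genes in the deposited tables, 37 of 4334 in the 4T1 table and 41 of 4832 in the C26m2 table. Of these, Trpc4ap matched by name only, since it encodes a protein that binds a channel and not a channel.

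The study had 4 groups of 2 libraries each, all from mice aged 12 to 14 weeks. The 4T1 cachectic group were Balb/c mice that had carried 4T1, a luciferase-labelled metastatic breast cancer line, and were compared with healthy Balb/c mice. The C26m2 cachectic group were CD2F1 mice that had carried C26m2, a luciferase-labelled metastatic colon cancer line, and were compared with healthy CD2F1 mice. Tumours were removed 2 to 3 weeks after injection, and muscles were taken 5 weeks after injection, once metastases had been imaged and the mice showed signs of cachexia. The labels record tumour cell injection and surgery only for cachectic mice, so their effects and those of the cancer cannot be told apart.

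Each value is the authors' FPKM for a group (fragments per kilobase of transcript, scaled to library size), 1 value per group, so no spread between libraries can be shown and depth is unknown. The tables list only genes that passed the authors' Cuffdiff test at a q-value of 0.05 or less. A gene that is not listed may have been tested without passing or not tested, and is not called unchanged. Of 8 defining skeletal muscle markers, none was listed in the 4T1 table and Des, which encodes desmin, was the only one in the C26m2 table, at 1290 FPKM in C26m2 cachectic muscle and 753 FPKM in healthy CD2F1 muscle. The fast myosin light chain gene Mylpf was listed at 3285 FPKM in 4T1 cachectic and 13985 FPKM in healthy Balb/c muscle, and at 4713 FPKM in C26m2 cachectic and 11181 FPKM in healthy CD2F1 muscle.

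Skeletal muscle fires when acetylcholine opens nicotinic receptors at the nerve endplate and voltage-gated sodium channels carry the action potential along the fibre and into the transverse tubules. There the calcium channel of the tubule acts as the voltage sensor that opens the ryanodine receptor of the calcium store. Chloride and potassium channels set the resting potential and bring the membrane back to it, and loss of the muscle chloride channel causes myotonia, a failure to relax.

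The listed channel genes were more often lower than higher in cachectic muscle of both models. Among the 37 members listed for 4T1, 11 were higher and 26 lower, and 70.3% were therefore lower, against 46.9% of all genes in that table (53.1% were higher). Among the 41 listed for C26m2, 13 were higher and 28 lower, and 68.3% were lower, against 41.1% of all listed genes (58.9% were higher). The whole 4T1 table holds 32.8% of about 13218 genes tested, and that of C26m2 holds 36.8% of about 13121. The number of channel genes tested is unknown: RefSeq names 189 protein-coding genes by the same rule, most of which were not listed, so the share of channel genes that passed cannot be set against these figures. The median log2 fold change of the listed members was -1.47 in 4T1 and -1.21 in C26m2, against 0.86 and 0.72 over all listed genes. These counts describe listed genes, and the members' direction was not tested as a set.

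**Figure D1:**
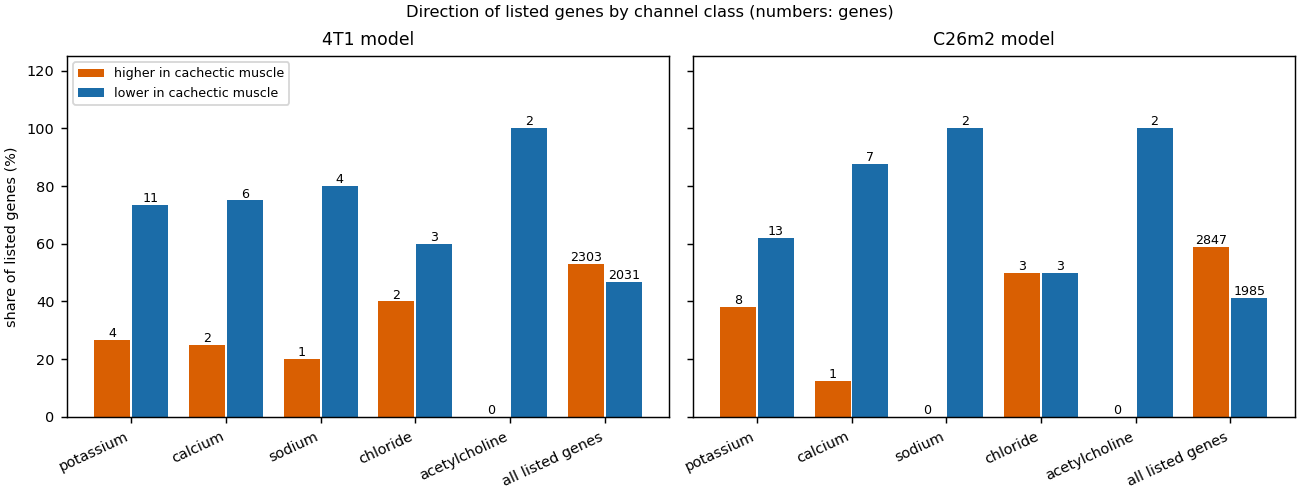
Share of listed genes that were higher (orange) or lower (blue) in cachectic muscle, in percent, by channel class and over all listed genes, in each model. Numbers above the bars are genes. Potassium, calcium, sodium and acetylcholine receptor genes were more often lower than higher in both models, while chloride genes were split 2 higher and 3 lower in 4T1 and 3 and 3 in C26m2.

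The 2 directions differed in the level from which the genes started. In the 4T1 model the 11 higher members had a median of 0.132 FPKM in healthy Balb/c muscle and the 26 lower members a median of 13.1 FPKM. Of the higher members, 9 (81.8%) were under 1 FPKM in healthy muscle, against 18.6% of all higher genes in that table. In the C26m2 model the medians in healthy CD2F1 muscle were 2.50 FPKM for higher and 11.5 FPKM for lower members, and 6 of 13 higher members (46.2%) were under 1 FPKM, against 9.10% of all higher genes. Of the lower members, 14 of 26 (53.8%) in 4T1 and 14 of 28 (50.0%) in C26m2 had 10 FPKM or more in healthy muscle, against 44.0% and 39.6% of all lower genes. Most 4T1 rises were thus of transcripts scarce in healthy muscle. In these whole-muscle samples, fewer cells of a type and less RNA per cell cannot be told apart.

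**Figure D2:**
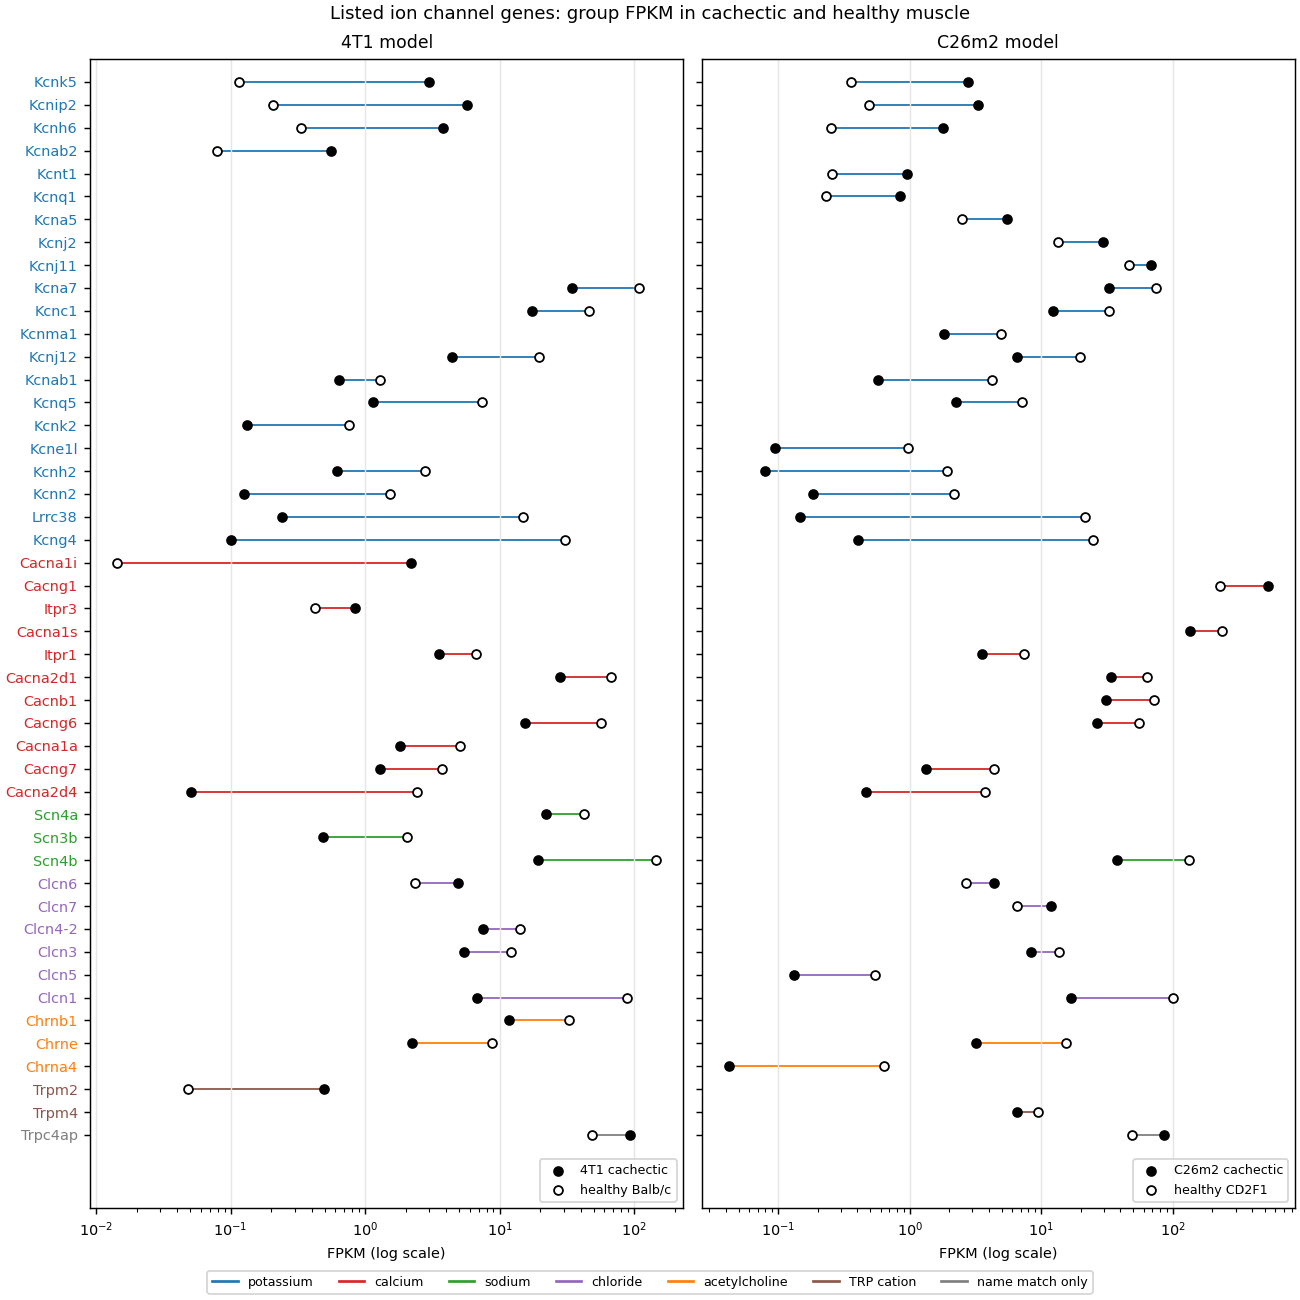
Group FPKM on a log scale of the ion channel genes reported here, in cachectic muscle (filled) and healthy muscle (open), for the 4T1 model (left) and the C26m2 model (right), with genes ordered by class, and lines coloured by class. A gene with no points in a panel was not listed in that table. Kcng4 and Lrrc38 span the widest falls, and Cacna1i spans the widest rise in 4T1.

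Potassium channel genes were the largest class, with 23 of the 52 members. The class was also the largest by name, since 95 of the 189 protein-coding genes that RefSeq names by the rule are potassium genes. For 4T1, 4 were higher and 11 lower (median log2 fold change -2.13), and for C26m2, 8 were higher and 13 lower (median -1.42). Kcng4 and Lrrc38 fell the most. Kcng4 encodes a silent subunit that forms no channel alone and alters the voltage-gated channels it joins. It had 0.101 FPKM in 4T1 cachectic muscle and 30.8 FPKM in healthy Balb/c muscle, and 0.401 FPKM in C26m2 cachectic and 24.8 FPKM in healthy CD2F1 muscle. These are falls of 306-fold and 61.9-fold, the 2nd and the 8th largest among all lower genes of the tables. Because the cachectic level is close to 0, the size of the fold is uncertain: with 1 FPKM added to both groups the log2 fold change of Kcng4 was -4.85 in place of -8.26 in 4T1 and -4.20 in place of -5.95 in C26m2.

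Lrrc38 encodes an auxiliary subunit of the large-conductance calcium-activated potassium channel. It had 0.239 FPKM in 4T1 cachectic and 14.9 FPKM in healthy Balb/c muscle, a 62.5-fold fall, and 0.145 FPKM in C26m2 cachectic and 21.4 FPKM in healthy CD2F1 muscle, a 147-fold fall. Its size rests on low cachectic levels too, and with 1 FPKM added the log2 fold change was -3.69 in place of -5.97 in 4T1 and -4.29 in place of -7.201 in C26m2. In rank it stood 17 among the 2031 lower genes of 4T1 and 1 among the 1985 of C26m2. For Kcng4 and Lrrc38 alike, the authors' deposited table gave the smallest q-value of each Cuffdiff comparison, 0.000382 in 4T1 and 0.000319 in C26m2. The pore subunit to which Lrrc38 belongs, Kcnma1, was listed in C26m2 only, at 1.83 FPKM in cachectic and 4.97 FPKM in healthy muscle.

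The most abundant voltage-gated potassium channel genes fell by less. Kcna7 had 34.7 FPKM in 4T1 cachectic and 109 FPKM in healthy Balb/c muscle (3.13-fold lower), and 32.7 FPKM in C26m2 cachectic and 74.9 FPKM in healthy CD2F1 muscle (2.29-fold lower). Kcnc1, a channel of fast repolarization, was at 17.3 FPKM in 4T1 cachectic and 46.6 FPKM in healthy Balb/c muscle, and at 12.3 FPKM in C26m2 cachectic and 32.9 FPKM in healthy CD2F1 muscle. Its falls of 2.69-fold and 2.68-fold were close to each other. Kcnq5, a slowly opening channel of the family that carries the M-current, fell 6.47-fold in 4T1 and 3.16-fold in C26m2.

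Further potassium genes fell from low levels. Kcnh2, a channel that repolarizes the heart, had 0.617 FPKM in 4T1 cachectic and 2.79 FPKM in healthy Balb/c muscle, and 0.0800 FPKM in C26m2 cachectic and 1.93 FPKM in healthy CD2F1 muscle. Kcnn2, a small-conductance calcium-activated channel, fell 12.3-fold in 4T1 and 11.9-fold in C26m2, to 0.125 FPKM in 4T1 cachectic and 0.184 FPKM in C26m2 cachectic muscle. Kcnab1, a cytoplasmic auxiliary subunit, fell 2.02-fold in 4T1 and 7.30-fold in C26m2. Listed in C26m2 only, Kcne1l had 0.0944 FPKM in cachectic and 0.970 FPKM in healthy muscle. Listed in 4T1 only, the leak channel gene Kcnk2 had 0.133 FPKM in cachectic and 0.762 FPKM in healthy muscle.

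Potassium genes that rose in both models were Kcnk5, Kcnip2 and Kcnh6. Kcnk5, an acid-sensitive leak channel, had 3.00 FPKM in 4T1 cachectic and 0.115 FPKM in healthy Balb/c muscle, and 2.79 FPKM in C26m2 cachectic and 0.357 FPKM in healthy CD2F1 muscle. Kcnip2, a calcium-binding subunit that partners the transient outward channels of the heart, rose 27.7-fold to 5.68 FPKM in 4T1 and 6.69-fold to 3.28 FPKM in C26m2. Kcnh6, a relative of Kcnh2 that moved the other way, rose 11.4-fold to 3.78 FPKM and 7.14-fold to 1.81 FPKM. Each of these genes stayed under 10 FPKM in cachectic muscle, so their rises are of scarce transcripts. Kcnab2, an auxiliary subunit related to Kcnab1, rose in 4T1 only, with 0.558 FPKM in cachectic and 0.0797 FPKM in healthy muscle. In C26m2 only, Kcnt1, a sodium-activated channel, rose 3.73-fold to 0.960 FPKM, and Kcnq1, a channel of heart and epithelia, rose 3.65-fold to 0.837 FPKM. Kcna5, a voltage-gated channel of heart and vessels, had 5.52 FPKM in C26m2 cachectic and 2.50 FPKM in healthy CD2F1 muscle.

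Inward rectifiers, which hold the resting potential, were split within the class. Kcnj12 fell in both models, to 4.45 FPKM in 4T1 cachectic muscle against 19.5 FPKM in healthy Balb/c muscle, and to 6.49 FPKM in C26m2 cachectic against 19.6 FPKM in healthy CD2F1 muscle. Its close relative Kcnj2 was listed in C26m2 only, where it rose 2.21-fold, with 29.5 FPKM in cachectic and 13.4 FPKM in healthy muscle. The ratio of Kcnj2 to Kcnj12 FPKM was 4.54 in C26m2 cachectic and 0.683 in healthy CD2F1 muscle. Kcnj11, the pore of the ATP-sensitive channel, was also listed in C26m2 only, at 68.0 FPKM in cachectic and 46.7 FPKM in healthy muscle (Cuffdiff q = 0.0258 in the authors' deposited table). The gene of its sulphonylurea receptor Abcc8 rose 1.81-fold in 4T1 and 4.81-fold in C26m2, and Abcc9, the receptor of its muscle form, fell 1.99-fold in 4T1.

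Sodium channel genes were mostly lower, 1 higher and 4 lower in 4T1 and 2 lower in C26m2. Scn4b, a beta subunit, which modifies the gating of the pore, had 19.4 FPKM in 4T1 cachectic and 145 FPKM in healthy Balb/c muscle, and 37.8 FPKM in C26m2 cachectic and 132 FPKM in healthy CD2F1 muscle. It fell 7.50-fold in 4T1 and 3.50-fold in C26m2. Scn3b, another beta subunit, was listed in 4T1 only, where it fell 4.19-fold to 0.489 FPKM. Scn4a, the sodium channel of adult muscle, was also listed in 4T1 only and fell 1.91-fold, with 22.2 FPKM in cachectic and 42.3 FPKM in healthy muscle (Cuffdiff q = 0.0217 in the authors' deposited table).

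Chloride channel genes were divided between the channel of the surface membrane and the exchangers of internal membranes. Clcn1, the muscle chloride channel, had 6.73 FPKM in 4T1 cachectic and 88.2 FPKM in healthy Balb/c muscle, and 16.97 FPKM in C26m2 cachectic and 100.3 FPKM in healthy CD2F1 muscle. It fell 13.1-fold in 4T1 and 5.91-fold in C26m2, to 7.63% and 16.9% of the healthy level. In the GENCODE annotation vM21, 8.20% of the exonic bases of Clcn1 overlap Fam131b on the opposite strand. Strand use was not given in the sources used here, so their reads could be mixed there, and Fam131b was in neither table.

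The exchangers of endosomes and lysosomes moved both ways. Clcn3, of endosomes, had 5.39 FPKM in 4T1 cachectic and 12.1 FPKM in healthy Balb/c muscle, and 8.41 FPKM in C26m2 cachectic and 13.7 FPKM in healthy CD2F1 muscle. Clcn4-2 (now Clcn4) was lower in 4T1 only, at 7.50 FPKM in cachectic and 14.1 FPKM in healthy muscle, and Clcn5 in C26m2 only, at 0.131 FPKM in cachectic and 0.544 FPKM in healthy muscle. Clcn6, of late endosomes, rose 2.098-fold in 4T1 and 1.63-fold in C26m2. Clcn7, of lysosomes, was listed in C26m2 only and rose 1.82-fold, with 11.9 FPKM in cachectic and 6.52 FPKM in healthy muscle.

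Calcium channel genes were mostly lower in both models, with 2 higher and 6 lower in 4T1 and 1 higher and 7 lower in C26m2. Among their voltage-gated auxiliary subunits, all 4 listed in 4T1 were lower, and 1 was higher and 5 lower in C26m2. The subunits of the tubule voltage sensor were listed together in C26m2. Cacna1s, its pore, had 136 FPKM in C26m2 cachectic and 235.5 FPKM in healthy CD2F1 muscle, a 1.73-fold fall (Cuffdiff q = 0.0320 in the authors' deposited table). Cacnb1, its beta subunit, had 31.1 FPKM in cachectic and 72.0 FPKM in healthy muscle, and Cacna2d1, its alpha2-delta subunit, had 33.7 FPKM in cachectic and 63.9 FPKM in healthy muscle. In the GENCODE annotation 20.0% of the exonic bases of Cacna1s overlap an antisense gene. Cacng1, its gamma subunit, which limits the channel's current, rose 2.30-fold, with 527 FPKM in C26m2 cachectic and 229 FPKM in healthy CD2F1 muscle. The 4 subunits of this complex thus moved unequally in C26m2, 3 lower and 1 higher. In the 4T1 table Cacna2d1 was the only listed subunit of the complex, at 27.98 FPKM in 4T1 cachectic and 67.4 FPKM in healthy Balb/c muscle.

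Other calcium channel subunits changed as well. Cacng6, a gamma subunit relative, had 15.5 FPKM in 4T1 cachectic and 57.2 FPKM in healthy Balb/c muscle, and 26.6 FPKM in C26m2 cachectic and 55.1 FPKM in healthy CD2F1 muscle. Cacng7 fell 2.94-fold and 3.26-fold from lower levels. Cacna2d4, another alpha2-delta subunit, fell 47.5-fold to 0.0509 FPKM in 4T1 and 8.04-fold to 0.462 FPKM in C26m2. With 1 FPKM added its log2 fold change was -1.70 in place of -5.57 in 4T1 and -1.69 in place of -3.01 in C26m2. Cacna1i, a low-voltage T-type channel, was listed in 4T1 only and rose from a trace, with 2.18 FPKM in 4T1 cachectic and 0.0144 FPKM in healthy Balb/c muscle. Its 152-fold rise was the 5th largest in that table, and rests on a healthy level close to the lowest value listed, 0.00693 FPKM. Cacna1a, the channel that triggers transmitter release at motor nerve endings, fell 2.80-fold in 4T1 to 1.82 FPKM (Cuffdiff q = 0.0486 in the authors' deposited table).

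Release channels of internal stores were represented by inositol trisphosphate receptors. Itpr1 fell in both models, to 3.55 FPKM in 4T1 cachectic against 6.72 FPKM in healthy Balb/c muscle, and to 3.56 FPKM in C26m2 cachectic against 7.37 FPKM in healthy CD2F1 muscle. Itpr3 rose 1.98-fold in 4T1, to 0.845 FPKM. The ryanodine receptor gene Ryr1 was in neither table. Of the transient receptor potential channels, Trpm2 rose in 4T1, with 0.492 FPKM in cachectic and 0.0482 FPKM in healthy muscle, and Trpm4 fell 1.43-fold in C26m2. Trpc4ap rose 1.92-fold in 4T1 and 1.78-fold in C26m2.

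The acetylcholine receptor genes that were listed were all lower. Chrne, the epsilon subunit of the adult endplate receptor, had 2.24 FPKM in 4T1 cachectic and 8.76 FPKM in healthy Balb/c muscle, and 3.19 FPKM in C26m2 cachectic and 15.4 FPKM in healthy CD2F1 muscle. It fell 3.91-fold and 4.84-fold. Chrnb1, the beta subunit, fell 2.78-fold in 4T1, with 11.8 FPKM in cachectic and 32.8 FPKM in healthy muscle, and was not listed in C26m2. Chrna4, a neuronal subunit, fell in C26m2 from a trace, with 0.0423 FPKM in cachectic and 0.636 FPKM in healthy muscle. The endplate genes Chrna1 and Chrnd and the fetal subunit gene Chrng, as well as Kcnn3, were in neither table.

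Members listed in both models had the same direction, as nearly all shared genes did. Of the 52 members 26 were in both tables, which is 70.3% of the 4T1 members and 63.4% of the C26m2 members. Over all listed genes these shares were 72.4% and 64.9%, so the members' overlap was near that of any listed gene. All 26 had the same sign, 6 higher and 20 lower, and of all 3138 genes shared by both tables, 26 had opposite signs. Another 11 were listed in 4T1 only, 5 higher and 6 lower, and 15 in C26m2 only, 7 higher and 8 lower. Of the 20 genes lower in both, 14 (70.0%) fell by more in 4T1, a share close to the 75.8% among all 1368 genes lower in both tables. A difference between the models was tested for each shared gene by a normal approximation, with standard errors derived from the deposited p-values and Benjamini-Hochberg adjustment over all 3138 genes. None of the 26 members passed, 1 had an unadjusted p under 0.05, and 0.829% of all shared genes passed. That member was Kcnab1, named after its value was seen, whose log2 fold change in 4T1 minus that in C26m2 was 1.86 (standard error 0.818). The test has little power where signs are equal, so this does not show that the models change these genes alike.

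**Figure D3:**
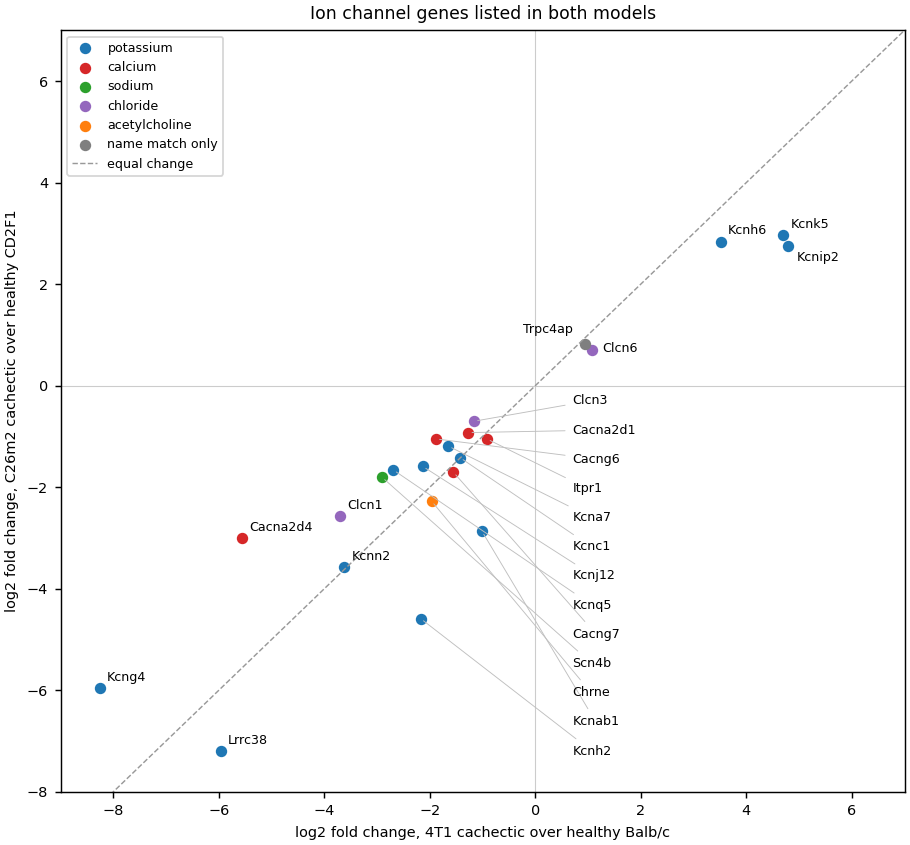
Log2 fold change of the ion channel genes reported here that were listed in both tables, 4T1 cachectic over healthy Balb/c muscle on the x axis and C26m2 cachectic over healthy CD2F1 muscle on the y axis, coloured by class. All points lie at the lower left or upper right of the origin, and Kcng4 and Lrrc38 lie farthest out among the falls.

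Levels in the healthy muscle of the strains were also close for most of these genes, across tables that were normalized separately and so without a test. The ratio of healthy CD2F1 to healthy Balb/c FPKM had a median of 1.003 over the 26 genes, and 20 lay within 1.5-fold of equality. The highest ratio was that of Kcnab1, at 3.23. Between C26m2 cachectic and 4T1 cachectic muscle the ratio had a median of 1.31, and 12 of the 26 genes lay within 1.5-fold.

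Promoter sequence is shown for 5 genes that moved the same way in both models and mark the extremes or the excitation pathway: both genes with the deepest falls, the muscle chloride channel, the endplate subunit, and Kcnip2 among the rises. Each is the 250 bases before the gene's start as RefSeq gives it on GRCm38.p6, a later build than that of the tables. The regions are chr4:143349500-143349749 on the + strand for Lrrc38, chr8:119635681-119635930 on the - strand for Kcng4, chr6:42286435-42286684 on the + strand for Clcn1, chr11:70619195-70619444 on the - strand for Chrne, and chr19:45816064-45816313 on the - strand for Kcnip2. Capitals mark the E-box CAGCTG bound by myogenic factors, the N-box CCGGAA bound by factors of synaptic nuclei, and the MEF2 motif.
Lrrc38: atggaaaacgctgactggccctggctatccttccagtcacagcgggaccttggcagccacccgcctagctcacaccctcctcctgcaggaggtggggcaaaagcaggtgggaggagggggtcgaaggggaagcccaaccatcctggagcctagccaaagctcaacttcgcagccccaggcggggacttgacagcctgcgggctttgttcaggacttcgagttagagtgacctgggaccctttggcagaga
Kcng4: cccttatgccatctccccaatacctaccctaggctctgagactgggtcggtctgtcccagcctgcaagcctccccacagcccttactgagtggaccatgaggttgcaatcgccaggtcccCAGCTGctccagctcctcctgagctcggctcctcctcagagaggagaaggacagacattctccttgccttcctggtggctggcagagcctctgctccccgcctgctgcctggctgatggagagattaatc
Clcn1: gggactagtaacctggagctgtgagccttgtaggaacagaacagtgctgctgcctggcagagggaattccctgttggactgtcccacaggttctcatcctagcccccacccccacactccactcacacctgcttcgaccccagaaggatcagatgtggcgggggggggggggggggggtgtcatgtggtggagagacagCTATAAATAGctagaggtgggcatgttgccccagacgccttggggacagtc
Chrne: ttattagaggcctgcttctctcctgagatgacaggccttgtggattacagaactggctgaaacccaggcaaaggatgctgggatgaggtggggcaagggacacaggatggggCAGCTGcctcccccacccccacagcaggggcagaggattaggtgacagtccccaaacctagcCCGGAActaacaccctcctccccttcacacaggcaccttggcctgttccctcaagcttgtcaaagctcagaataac
Kcnip2: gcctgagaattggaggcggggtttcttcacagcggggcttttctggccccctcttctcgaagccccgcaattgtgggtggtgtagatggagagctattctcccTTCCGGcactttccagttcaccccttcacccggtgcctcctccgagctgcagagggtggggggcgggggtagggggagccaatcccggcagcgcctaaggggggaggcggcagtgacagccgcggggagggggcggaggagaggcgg

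In these windows Chrne held an E-box that begins at -138 (counted from the gene's start) and an N-box at -76, Kcng4 held an E-box at -130, Clcn1 a MEF2 match at -51 and Kcnip2 an N-box on the opposite strand at -147. Lrrc38 held none of them. Both strands were searched, and windows were found for 37 of the 52 members, 50 in all. The E-box was in 8 of these 50, against 4271 of all 32851 promoter windows in the RefSeq table. The N-box was in 4 of the 50, against 12.0% of all, and MEF2 in 2 of the 50, against 2.92% of all. Among the 19 windows of members lower in both models, the E-box was in 2, the N-box in 1 and MEF2 in 2. Among the 5 windows of members higher in both models, the E-box was in 0, the N-box in 2 and MEF2 in 0. The CArG box of serum response factor and the FoxO motif GTAAACA were in none of the members' windows, against 1.47% and 3.17% of all windows, and the glucocorticoid receptor half-site AGAACA in 6 of the 50, against 16.1% of all. Counts this small show no difference from all promoters, and a match is a run of letters and not a shown binding site.

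The proteins that work beside these channels were examined from lists of names. Their counts stand against 32.8% of tested genes listed in 4T1 and 36.8% in C26m2, of which 46.9% and 41.1% were lower. How many list members were tested is unknown, and no list was tested as a set. Of 27 genes for excitation-contraction coupling partners, 14 were listed in each table, 2 higher and 12 lower in 4T1 (median log2 fold change -2.12) and 1 higher and 13 lower in C26m2 (median -0.96). This is 51.9% of the list in each, and 85.7% of its listed genes were lower in 4T1 and 92.9% in C26m2. Jph2, junctophilin, which joins the tubule to the calcium store, fell 21.2-fold in 4T1 and 12.3-fold in C26m2. Stac3, which links the voltage sensor to the release channel, had 25.8 FPKM in 4T1 cachectic and 280 FPKM in healthy Balb/c muscle. In C26m2 cachectic muscle Stac3 had 67.4 FPKM, against 216 FPKM in healthy CD2F1 muscle. Casq1, the calcium-binding protein of the store, fell 47.6-fold and 20.4-fold, and Pvalb, a soluble calcium buffer, fell 7.61-fold in 4T1 and 3.97-fold in C26m2. Sln, a regulator of the calcium pump, was listed in 4T1 only and rose 30.6-fold. The cation channel gene Tmem38b rose in both, 2.33-fold and 3.74-fold.

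Of 17 neuromuscular junction partners 8 were listed in 4T1, 3 higher and 5 lower, and 10 in C26m2, 4 higher and 6 lower, which is 47.1% and 58.8% of the list. Ache, which breaks down acetylcholine, fell 13.2-fold in 4T1 and 9.41-fold in C26m2. Lrp4, the receptor for agrin, had 0.579 FPKM in 4T1 cachectic and 3.31 FPKM in healthy Balb/c muscle, and 0.781 FPKM in C26m2 cachectic and 2.93 FPKM in healthy CD2F1 muscle. Its partner kinase Musk moved the other way, with 5.16 FPKM in 4T1 cachectic and 0.467 FPKM in healthy Balb/c muscle, and 2.51 FPKM in C26m2 cachectic and 1.16 FPKM in healthy CD2F1 muscle. Ufsp1 fell 5.79-fold and 4.11-fold.

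For the sodium-potassium pump, which restores the gradients the channels use, 6 of 13 genes were listed in each table, 3 higher and 3 lower in 4T1 and 2 higher and 4 lower in C26m2, which is 46.2% of the list in each. Its beta subunit genes Atp1b1 and Atp1b2 fell in both models. Atp1b2 had 12.0 FPKM in 4T1 cachectic and 171 FPKM in healthy Balb/c muscle, and 26.4 FPKM in C26m2 cachectic and 129.5 FPKM in healthy CD2F1 muscle. Atp1b4, a muscle relative of these subunits, fell 39.0-fold and 9.44-fold. Fxyd7, a small protein that regulates the pump, rose 8.39-fold in 4T1.

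Of 41 channel genes outside the name rule 12 were listed in 4T1, 5 higher and 7 lower, and 9 in C26m2, 6 higher and 3 lower. These are 29.3% and 22.0% of the list, below the share of all tested genes. Accn3 (now Asic3), an acid-sensing channel, rose 7.41-fold to 2.42 FPKM in 4T1 and 3.99-fold to 0.679 FPKM in C26m2. Ano5, a muscle anoctamin, fell 5.50-fold in 4T1 and 1.67-fold in C26m2. Subunits of the volume-regulated anion channel rose, Lrrc8d 3.92-fold in 4T1 and 2.82-fold in C26m2 and Lrrc8a 2.85-fold in C26m2. Lrrc52, a relative of Lrrc38 in the same auxiliary family and named after its value was seen, rose 3.44-fold in 4T1 to 3.62 FPKM.

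**Figure D4:**
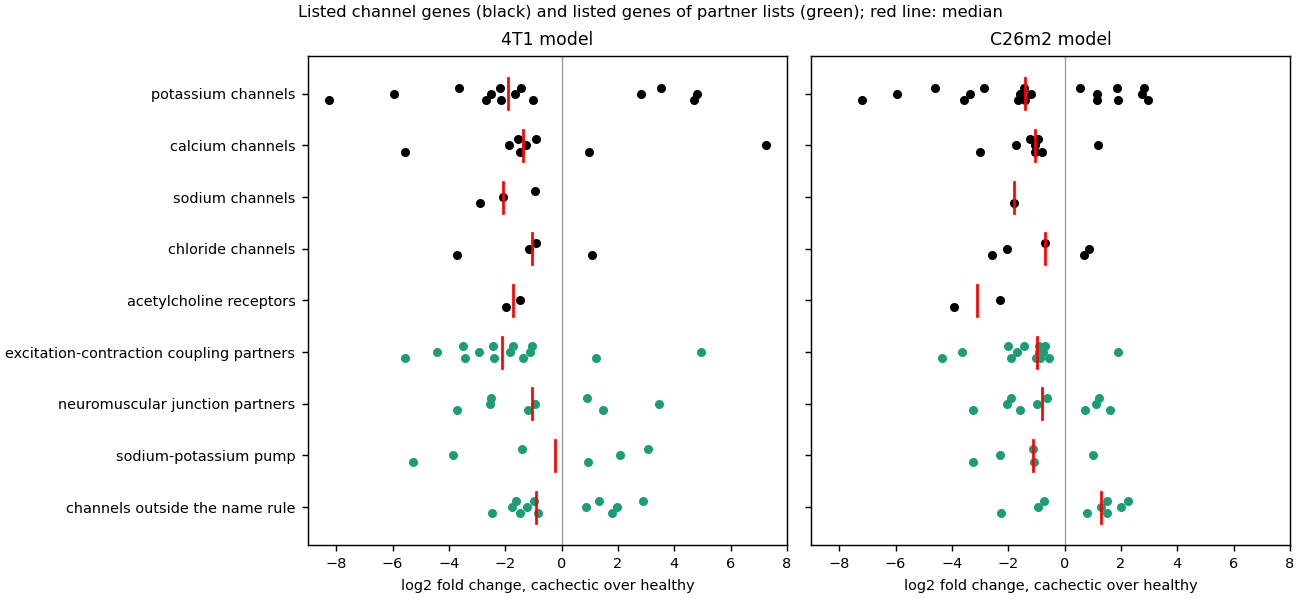
Log2 fold change, cachectic over healthy, of each listed gene reported here, by channel class (black) and partner list (green) in the 4T1 model (left) and the C26m2 model (right), with the median of the plotted genes of each row as a red line. Excitation-contraction coupling partners were mostly lower in both models, while channels outside the name rule were split.

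Genes from a list of names of channel gene regulators changed too, and the list does not show which members, if any, each acts on. Of 18 regulators 9 were listed in 4T1, 4 higher and 5 lower, and 10 in C26m2, 6 higher and 4 lower, which is 50.0% and 55.6% of the list. Runx1, a transcription factor that denervation induces in muscle, rose 21.5-fold in 4T1 and 11.7-fold in C26m2, and Myog, a factor that drives endplate receptor genes, had 37.3 FPKM in 4T1 cachectic and 3.74 FPKM in healthy Balb/c muscle. In C26m2 Myog had 4.55 FPKM in cachectic and 2.07 FPKM in healthy muscle. Mef2c fell 13.4-fold and 6.49-fold, and Myod1 fell 8.35-fold and 5.55-fold. The related genes Mef2a and Mef2d moved the other way in C26m2, where they rose 1.82-fold and 1.61-fold, and were not listed in 4T1. Their part in the channel changes was not tested.

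Some markers of other cells moved beside the channel genes, and their counts stand against the same shares of all tested genes. Neutrophil markers were higher in all listed cases, 6 of 10 in 4T1, with listed members summing to 2134 FPKM in cachectic and 3.30 FPKM in healthy muscle, and 5 of 10 in C26m2, with sums of 110 FPKM in cachectic and 8.54 FPKM in healthy muscle. In 4T1 this stands beside rises of Trpm2 and Kcnab2, which white blood cells also express. Neither gene was listed in C26m2. Macrophage markers were 2 higher and 5 lower of 10 in 4T1 (sums of 61.4 FPKM in cachectic and 13.04 FPKM in healthy muscle) and 1 higher and 8 lower in C26m2 (21.1 FPKM in cachectic and 31.2 FPKM in healthy muscle). The higher sum in 4T1 cachectic muscle was mostly Cd68, at 51.8 FPKM against 2.64 FPKM in healthy Balb/c muscle, while the 5 lower markers fell. Endothelial markers were 3 higher and 1 lower of 10 in 4T1 (90.1 FPKM in cachectic and 61.5 FPKM in healthy muscle) and 5 higher in C26m2 (134 FPKM in cachectic and 66.2 FPKM in healthy muscle). Those of C26m2 stand beside Kcnj2 and Kcna5, neither of which was listed in 4T1. Nerve and Schwann cell markers, beside Cacna1a (listed in 4T1 only) and Chrna4 (in C26m2 only), were lower in all listed cases, 2 of 14 in 4T1 (18.6 FPKM in cachectic and 34.4 FPKM in healthy muscle) and 5 of 14 in C26m2 (33.0 FPKM in cachectic and 72.1 FPKM in healthy muscle). These are 14.3% and 35.7% of the list, under the 32.8% and 36.8% of all tested genes.

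The remaining lists gave few or one-sided calls, and the share listed was under that of all tested genes in 4T1 and in C26m2 for smooth muscle and pericyte markers (20.0% and 30.0%) and for lymphocyte markers (2 and 1 of 10). Fibroblast markers were lower in 9 of 10 in 4T1 (82.5 FPKM in cachectic and 570 FPKM in healthy muscle) and in all 10 in C26m2 (94.8 FPKM in cachectic and 439 FPKM in healthy muscle). Smooth muscle and pericyte markers, beside Kcnma1 (listed in C26m2 only), were 2 lower of 10 in 4T1 and 1 higher and 2 lower in C26m2. Lymphocyte markers were 1 higher and 1 lower in 4T1 and 1 lower in C26m2, and adipocyte markers 0 in 4T1 and 3 lower in C26m2. Of 9 fast-fibre markers 2 were listed in 4T1 and 4 in C26m2, all lower. Of 8 slow-fibre markers 4 were listed in 4T1, 2 higher and 2 lower, and 2 in C26m2, 1 of each. No listed marker had a group value of 0, and the part of any of these lists in the channel results was not tested.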

How the data were processed

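Libraries were made from poly-A RNA with the Illumina TruSeq kit, per the labels' protocols. Reads were processed with the tools TopHat2 2.1.0 and Cufflinks 2.2.1, including Cuffdiff, on build NCBIM37, per the submitters' processing notes. The annotation release, library normalization and strand use were not given in the sources used here. Group values in FPKM, the log2 fold change of cachectic over healthy muscle, and the p-value and q-value are the authors' Cuffdiff output, per the file headers, deposited as 1 table per model of significant genes only. The deposited log2 fold change differed from the log2 ratio of the deposited FPKM values by at most 1.4e-05, so no pseudocount had been added. The smallest deposited p-value is 5e-05.

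From these values, folds, counts and medians were computed with Python 3.11.15, pandas 2.3.3 and scipy 1.17.1. The labels do not tie libraries to animals, so p-values measure only the spread between these libraries, which may be technical. The number of genes tested was estimated as the median of q times rank over p, which ranged from 13178 to 13337 in 4T1 and from 13117 to 13147 in C26m2. For the difference between models, each standard error was the absolute log2 fold change over the normal quantile of the deposited p-value, which is an upper bound at the smallest p-value. Simulated data of 13000 genes, with 200 moved by a log2 value of 4, were made from each comparison. The test called 100% of the moved genes whose sign turned (153 from 4T1 and 146 from C26m2), none of the 3 and 1 whose sign was kept, and 0.0235% and 0.0581% of genes that had not moved.

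Named genes are, in each table, the 10 members with the largest absolute log2 fold change at 1 FPKM or more in either group, the 3 most abundant listed members of each class, and a list of textbook muscle channels. Most remaining members were named too. A few genes are not reported here, and counts and medians in the text include them. Partner lists were given by counts with the 3 largest changes, and other genes of them were named after their values were seen. Tnnt1, the slow troponin T gene, was moved from the fast-fibre to the slow-fibre list after its values were seen. Members and lists were chosen with earlier results of these data known. Alternatives tried were a q-value of 0.01, 1 FPKM or more, an absolute log2 fold change of 1 or more, pseudocounts and centring. Symbols were matched by Ensembl ID to the GENCODE vM21 gene names, which held 5927 of 6028 listed IDs and 51 of the 52 members.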

Additional observations from a re-analysis of the deposited data

How the results depend on the processing

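Counts of channel genes in each direction stayed within 1.5 times, and more members were lower than higher, at a q-value of 0.01 or less, at 1 FPKM or more in either group, and at an absolute log2 fold change of 1 or more, with 1 exception. At 1 FPKM or more, 7 members were higher in 4T1 in place of 11, the lost genes being those that never reached 1 FPKM. The share of lower members ran from 70.3% to 78.1% in 4T1 and from 68.3% to 72.7% in C26m2. Over all listed genes under the same settings it ran from 45.7% to 47.9% and from 38.9% to 45.4%. Counts by class moved more. With q at 0.01 or less, calcium genes went from 8 to 5 and sodium genes from 5 to 3 in 4T1. In C26m2 chloride genes went from 6 to 3 there and at an absolute log2 fold change of 1 or more. Acetylcholine receptor genes of C26m2 went from 2 to 1 at that q-value and at 1 FPKM or more. At a q-value of 0.01 or less Scn4a, Cacna1a and Itpr1 were among the genes no longer called in 4T1, as were Kcnab1, Kcnh2, Clcn4-2, Itpr3 and Trpc4ap. In C26m2 the calls lost included Cacna1s, Cacnb1, Kcnj11, Clcn6, Chrna4, Clcn5, Kcne1l, Kcnt1 and Trpm4. The median log2 fold change of the members became -1.06 in 4T1 and -0.88 in C26m2 with a pseudocount of 1 FPKM, and -2.33 and -1.93 when centred on the median of all listed genes. A pseudocount cannot turn a sign, but it shrank the folds of genes scarce in a group. Among the log2 fold changes of named genes, 5 moved by more than their standard error and 52 by less with 0.1 FPKM, and 25 moved by more and 32 by less with 1 FPKM, the falls of Kcng4 and Lrrc38 among the 25. For Cacna1i in 4T1 the value was 4.31 with 0.1 FPKM and 1.65 with 1 FPKM, in place of 7.24. The number of members that differed between models was 0 under both alternatives tried. Leaving out a library was not run, since each group has 1 value. No paired analysis was possible because the tables carry no values per library.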
